A study of Mus musculus with 20 samples.

Results

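The comparison of Tlr4 knockout with wild type intestinal epithelial cells rested on 8 of the 20 arrays of the series, taken by their titles: 4 from Tlr4 knockout mice and 4 from wild type mice. All mice were healthy, untreated and 28 days old, and the labels give their strain as C57BBL6. The epithelium was released with EDTA and the cells were collected by sedimentation; the labels give under 5% CD45+ cells by flow cytometry. Each array holds total RNA of 1 animal, labelled with Cy3 and hybridised to a one-colour Agilent mouse array. The labels name neither the segment of intestine nor the Tlr4 allele, nor do they limit the knockout to one cell type. The other 12 arrays came from mice of the same age with a Trif LPS/LPS mutation, a Tlr3 knockout or a MyD88 knockout, 4 mice each, and served here to show where the Tlr4 knockout differed from the other mutants.

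Values below are log2 signals relative to the 75th percentile of the array, so 0 is the 75th percentile and a step of 1 is a doubling. Between 64.7% and 71.2% of the probes were well above background on the 8 arrays. Same-numbered arrays of both groups shared a slide, with wild type always at position 1 and the knockout always at position 3, so slide position and genotype cannot be told apart. Xist was well above background on all 8 arrays and the Y-linked Ddx3y, Uty, Eif2s3y and Kdm5d on none of them. Between 1 and 4 of these 5 genes were above background on the Trif and Tlr3 arrays and 4 or 5 on the MyD88 arrays. Against the Trif and Tlr3 mutants, sex and genotype are therefore not fully separate. On the MyD88 arrays the median deviation of these 5 genes from the wild type mean was 6.83 to 7.17, so sex differs there along with genotype. The MyD88 arrays lay on other slides than the rest and were scanned apart, with 70.9% to 85.5% of probes well above background. In every comparison with them, scan, sex and genotype cannot be told apart. The number of arrays, 4 per group, limits the precision of every value.

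TLR4 is the receptor for bacterial lipopolysaccharide. It binds its ligand together with MD-2, encoded by Ly96, with help from CD14 and lipopolysaccharide-binding protein, and signals through the adaptors MyD88 with TIRAP and TRIF with TRAM. Downstream of these lie NF-kappaB and interferon regulatory factors. In the intestinal epithelium TLR4 is known for low expression and for its part in how the tissue responds to the gut flora.

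The targeted gene itself could not check the labels. Its main probe, on chr4:66503724-66503782 (mm9) and printed as 10 spots per array, was well above background in 0 of 39 usable wild type spots and 0 of 38 usable knockout spots. The mean log2 level was -8.13 ± 0.44 (SD, n = 4) in wild type and -8.37 ± 0.35 (SD, n = 4) in the knockout. A second Tlr4 probe, on chr4:66590556-66590615, was above background in neither group, with mean levels of -8.39 and -8.29. Both groups therefore have only a background reading, and no fold is given. In the other genotypes the main probe was well above background in 0 of 38 spots of the Trif mutant, 3 of 38 of the Tlr3 knockout and 17 of 36 of the MyD88 knockout. Spots of 1 array are repeats of 1 mouse. The 17 all came from MyD88 replicates 1 (10 of 10 spots) and 2 (7 of 7), with 0 in replicates 3 and 4. The second probe was above background in 0 of 4 MyD88 spots.

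Among 21880 features tested, 1 probe per gene, 2782 passed an adjusted p of 0.05 in limma's moderated test, which is 12.7% of all. In the knockout 2098 features were higher, 9.59% of those tested, and 684 were lower, 3.13%. Median scaling, which moved the median of all features from 0.01 to -0.13, gave 1401 higher and 1289 lower, so the share of higher calls was 52.1% there against 75.4% in the main scaling. With normexp background correction, whose offset of 50 compresses dim signals, 672 features passed, 528 of them higher, and the median of all features moved to 0.21. Of 90 named genes past the threshold 57 were not past it in the same direction under this correction. Of the features that were higher, 59.9% carried only a clone or predicted-transcript name, against 26.7% of all features and 16.2% of those lower. Within the 16034 features with a standard gene symbol, 841 were higher and 573 lower.

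MHC class II genes had the highest share of members past the threshold among 34 gene lists. MHC class II molecules present peptides to CD4 T cells, and intestinal epithelial cells are known to carry them in amounts that interferon-gamma raises through the transactivator CIITA. Of 9 measured members 7 rose and none fell, with a median log2 change of 2.67 against 0.01 over all features. A count of 7 held under each of 22 alternative settings of processing, scaling, blocking and left-out arrays, where the list's median stayed between 2.53 and 2.92. Each of the 7 was also higher than in the Trif mutant, the Tlr3 knockout and the MyD88 knockout by the direct tests, which 41.1%, 30.7% and 47.9% of all features passed in either direction.

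H2-Aa, the alpha chain of the I-A molecule, was at -2.97, -2.71, -3.08 and -2.32 on the wild type arrays and at 1.77, 1.49, 1.60 and 1.27 on the knockout arrays. The groups lie far apart, with a log2 change of 4.30 ± 0.43 (SE, adjusted p = 5.1e-06), 19.7-fold. They do not overlap, which holds for 13.6% of all features with the knockout higher. Its partner H2-Ab1 read 2.46, 2.61, 2.38 and 2.79 in wild type and 5.30, 5.11, 5.33 and 5.12 in the knockout, a change of 2.65 ± 0.32 (SE). H2-Eb1, the beta chain of I-E, rose by 3.16 ± 0.34 (SE) from levels between -0.88 and -0.77 to levels between 1.90 and 2.65. Genes of the loading machinery moved with the chains. Cd74, the invariant chain that guides class II molecules to the endosome, was between 1.08 and 1.55 in wild type and between 4.93 and 5.54 in the knockout, a change of 3.95 ± 0.43 (SE, adjusted p = 1.3e-05). H2-DMb1 and H2-DMa, subunits of the peptide editor, rose by 3.36 ± 0.39 and 2.67 ± 0.29 (SE). Ciita itself read -1.60, -1.62, -1.92 and -2.21 in wild type and 0.52, 0.31, 0.18 and -0.64 in the knockout, a change of 1.93 ± 0.44 (SE, adjusted p = 0.00627). The 2 measured members that did not pass were H2-Oa, at -5.2 and -5.1, and H2-Eb2, not well above background in either group.

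The other mutants lay on both sides of wild type for these genes. Against the same wild type arrays, H2-Aa changed by -1.71 in the Trif mutant, 2.76 in the Tlr3 knockout and 2.46 in the MyD88 knockout, and Cd74 by -2.73, 2.13 and 2.28. Set directly against each other, H2-Aa in the Tlr4 knockout was higher than in the Trif mutant by 6.01, than in the Tlr3 knockout by 1.54 and than in the MyD88 knockout by 1.84 (each ± 0.43, SE; adjusted p = 7.3e-08, 0.0153 and 0.00303).

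Promoter sequences from RefSeq, build GRCm38.p6, were at hand for 73 of 95 named genes, among them 3 of the class II genes that rose most. The 150 bases before the start are given for these 3 to show letters they share, in lower case, with capitals for the letters TGATTGG, which match the Y box, and CTNGNAACT, chosen after reading these sequences at the place of the X box. Both strands were searched. These letters stand in the order in which the X and Y boxes of class II promoters are known to lie; a match is a description, not a binding site.
H2-Aa (chr17:34287824-34287973, minus strand): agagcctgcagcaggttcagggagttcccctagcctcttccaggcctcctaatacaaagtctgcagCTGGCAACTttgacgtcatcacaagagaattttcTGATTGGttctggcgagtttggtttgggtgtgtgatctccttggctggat
H2-Eb1 (chr17:34305717-34305866, plus strand): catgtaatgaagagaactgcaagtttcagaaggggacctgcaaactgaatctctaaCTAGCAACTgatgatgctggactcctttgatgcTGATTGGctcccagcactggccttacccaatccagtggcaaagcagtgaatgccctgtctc
H2-DMb1 (chr17:34153041-34153190, plus strand): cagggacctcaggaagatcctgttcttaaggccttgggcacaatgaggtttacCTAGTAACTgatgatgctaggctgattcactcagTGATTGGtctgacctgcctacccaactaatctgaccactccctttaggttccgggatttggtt
The TGATTGG match begins 50, 61 and 63 bases before the start and the CTNGNAACT match 84, 94 and 97 bases before it. Over windows of the same length, 5.71% of 32851 promoters hold TGATTGG and 2.00% hold CTNGNAACT.

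Markers of professional antigen-presenting cells were set beside the class II genes. Of 15 measured B and plasma cell markers none passed the test, and their summed linear level was between 5.41 and 6.41 in wild type and between 4.09 and 6.07 in the knockout. On each array 11 to 15 of the 15 were above background. Cd79a, a B cell receptor chain, changed by 0.01. The list leaned upward, with 12 of the 15 above 0, a median of 0.10 and a highest change of 1.38. Of 23 macrophage, dendritic cell and neutrophil markers 1 rose and 2 fell, together 13.04% against 12.7% of all features, with summed levels of 41.2 to 79.6 in wild type and 24.1 to 62.6 in the knockout, and 16 to 22 above background. Itgax, the CD11c gene of dendritic cells, changed by 0.04 and Flt3 by 0.08, while Csf1r, the receptor for macrophage growth factor, changed by -0.35. Cd68 rose by 0.73, and Fcgr1 and Ms4a7 were the members that fell, by 0.85 and 0.90. Fcgr1 was not well above background in the knockout, and a second Fcgr1 probe changed by 0.35. Both of these falls lost the threshold when single arrays were left out. Outside the list Clec10a, a lectin of macrophages and dendritic cells, rose by 1.80 (adjusted p = 0.00655). It was well above background on 1 wild type array and 4 knockout arrays, and was named after its value was seen. Ccl17, also outside the list and named after its value was seen, rose by 2.47 and is given below with the chemokines. Of 32 T and NK cell markers only Gzma passed, with a change of -0.95; without wild type replicates 1 or 4 or knockout replicates 1, 2 or 3 its adjusted p was 0.058 to 0.135. Ptprc, which encodes CD45, changed by -0.48 (adjusted p = 0.28). In bulk RNA, fewer cells of a type and less RNA per cell cannot be told apart.

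Other interferon-gamma induced genes passed at a share not far above that of all features. Of 30 measured members 5 passed, all higher, with a median of 0.33. This is 16.7%, against 12.7% of all features in either direction and 9.59% higher. Ubd, a ubiquitin-like modifier, read between 1.03 and 1.63 in wild type and between 3.15 and 4.22 in the knockout, a change of 2.13 ± 0.39 (SE, adjusted p = 0.00115). Gbp8, a guanylate-binding GTPase, rose by 1.37 ± 0.26 (SE). Iigp1, another interferon-induced GTPase, rose by 2.61 ± 0.68 (SE, adjusted p = 0.0153), but with the replicate number as a block its adjusted p was 0.0907, and it was 0.058 without wild type replicate 2, 0.053 without wild type replicate 3 and 0.058 without knockout replicate 3. Each of those 3 omissions left 3 members of the list past the threshold. Irf1 (0.19), Tap1 (0.35) and Psmb8 (0.40), common targets of the same cytokine, did not pass.

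The list of type I interferon-stimulated genes leaned the other way, and its calls rested on single arrays. Of 44 measured members 9 fell and 1 rose, with a median of -0.51. These are 20.5% and 2.27%, against 3.13% of all features lower and 9.59% higher. Rtp4, a chaperone of receptor transport, read 4.02, 3.94, 4.05 and 5.07 in wild type and 2.68, 2.63, 3.60 and 3.44 in the knockout, a change of -1.19 ± 0.26 (SE, adjusted p = 0.00461). Wild type replicate 4 was the highest of the 8. Without it 1 member fell and the median was -0.31; without knockout replicate 1 or 2 again 1 fell, without wild type replicate 3 5 fell, and without knockout replicate 3 14 fell. With the replicate number as a block 2 fell. Mx1, an antiviral GTPase, was the member that rose, from between -3.61 and -3.28 to between -2.39 and -1.83, a change of 1.31 ± 0.27 (SE), and it kept its call under each alternative.

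**Figure D1:**
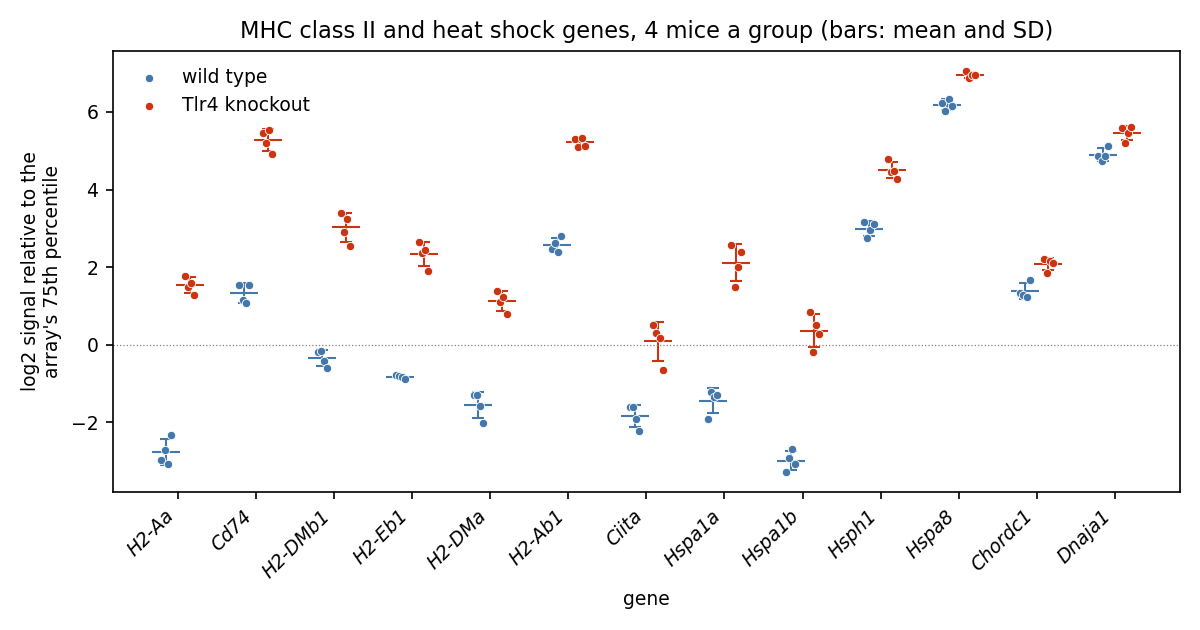
Log2 signal relative to each array's 75th percentile for the 7 MHC class II genes and 6 heat shock genes that rose, with 1 point per mouse and bars for mean and SD (n = 4 per group). The genes are shown because they passed the test. The groups do not overlap for any of them, which holds for 13.6% of all features with the knockout higher. The difference of the means is 4.30 for H2-Aa and 0.56 for Dnaja1.

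Of 32 measured genes in a joint list of heat shock and immediate early genes 6 rose and none fell, and the median of the list was 0.04. This is 18.75%, against 12.7% of all features in either direction and 9.59% higher. Split by name after the values were seen, the list holds 12 heat shock genes, of which 6 rose, with a median of 0.36, and 20 immediate early genes, of which none passed, with a median of 0.01; the difference between these parts was not tested. Hspa1a, the stress-inducible HSP70, read -1.91, -1.22, -1.35 and -1.28 in wild type and 2.58, 1.50, 1.99 and 2.39 in the knockout, a change of 3.55 ± 0.50 (SE, adjusted p = 0.000105), 11.8-fold. Hspa1b, its near-identical neighbour, rose by 3.35 ± 0.44 (SE), and the probes for this pair may read each other's transcript. Hsph1, an HSP110 exchange factor, rose by 1.51 ± 0.28, Hspa8, the constitutive HSP70, by 0.77 ± 0.11, Chordc1, an HSP90 cochaperone, by 0.70 ± 0.12 and Dnaja1, an HSP40, by 0.56 ± 0.13 (all SE). Each of the 6 differed from the Trif mutant and the MyD88 knockout by the direct tests, and 4 of them also from the Tlr3 knockout. Of all features 41.1%, 47.9% and 30.7% passed these tests in either direction. Against the same wild type arrays, Hspa1a changed by 0.42 in the Trif mutant, 1.58 in the Tlr3 knockout and 1.42 in the MyD88 knockout. In that order Hspa1b changed by 0.33, 1.39 and 1.37, Hspa8 by 0.03, 0.52 and 0.42, and Hsph1 by -2.15, -0.32 and 0.21. Chordc1 changed by 0.22, -0.05 and 0.05, and Dnaja1 by 0.12, 0.45 and -0.14.

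Not all chaperones moved. Hsp90aa1 changed by 0.14 and Dnajb1 by -0.02. Of the immediate early genes, which cells switch on within minutes of a stimulus or of handling, Fos changed by 0.24, Jun by 0.04, Egr1 by -0.31 and Atf3 by -0.32, and none passed. With the replicate block 6 members rose and 2 fell; with normexp correction 3 rose, and Hspa8, Chordc1 and Dnaja1 did not pass (adjusted p = 0.086, 0.068 and 0.161).

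The promoters of the HSP70 pair are shown because they carry the same heat shock element-like letters and are almost the same sequence. Capitals mark GAANNTTC, the inverted repeat of the element, in the 150 bases before the start (RefSeq, GRCm38.p6).
Hspa1a (chr17:34972157-34972306, minus strand): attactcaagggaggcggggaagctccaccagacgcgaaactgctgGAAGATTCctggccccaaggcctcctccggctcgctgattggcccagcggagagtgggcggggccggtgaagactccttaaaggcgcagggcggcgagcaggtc
Hspa1b (chr17:34959239-34959388, minus strand): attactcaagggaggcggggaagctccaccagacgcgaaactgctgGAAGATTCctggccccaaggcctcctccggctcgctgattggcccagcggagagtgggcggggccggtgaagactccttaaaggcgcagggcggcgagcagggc
These windows differ at 1 of 150 positions, and the match begins 104 bases before the start in both. GAANNTTC is in 3.95% of promoter windows of this length. Both windows also hold the letters TGATTGG shown for the class II genes, left in lower case because only GAANNTTC is marked here.

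Enteroendocrine genes held more falls than any other list. Enteroendocrine cells are scattered hormone-secreting cells of the gut epithelium, and each hormone marks a subset of them. Of 33 measured markers 16 fell and 2 rose, with a median of -0.49. These are 48.5% and 6.06%, against 3.13% of all features lower and 9.59% higher. With normexp correction 6 fell, none rose and the median was -0.07. Leaving out single arrays left between 12 and 15 falls, and the median was below 0 within each of the 4 slides, from -0.83 to -0.31. Of the 16, 10 were also lower than in each of the other mutants. Over all features this held for 158 of the 684 that were lower.

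Peptide hormones led the list. Cck, the cholecystokinin gene, read 2.48, 2.28, 2.28 and 2.71 in wild type and -0.08, 0.06, -0.23 and 0.02 in the knockout. No knockout array came near the wild type range, and the change was -2.50 ± 0.31 (SE, adjusted p = 3.15e-05), 5.65-fold lower. Ghrl, the ghrelin gene, read 0.90, 0.48, 0.75 and 1.03 against -1.28, -1.50, -1.76 and -1.22, a change of -2.23 ± 0.22 (SE, adjusted p = 3.65e-06), and a second probe changed by -2.16. Nts, the neurotensin gene, was between 2.15 and 3.02 in wild type and between 0.19 and 1.09 in the knockout, a change of -2.05 ± 0.37 (SE, adjusted p = 0.000847). These 3 hormones kept their calls under each alternative and were lower than in each other mutant. Gcg, which encodes the precursor of glucagon-like peptides, fell by 1.41 ± 0.23, Gip, an incretin, by 1.39 ± 0.21, Pyy, peptide YY, by 1.05 ± 0.27 and Sct, secretin, by 0.89 ± 0.17 (all SE). Pyy lost the threshold with normexp correction and without wild type replicates 2 or 4 or knockout replicate 2, with adjusted p up to 0.055 for the omissions.

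Against the same wild type arrays, Cck changed by 0.74 in the Trif mutant, -0.43 in the Tlr3 knockout and 0.01 in the MyD88 knockout, and Ghrl by 0.85, -0.36 and 0.78. Gcg was also lower in the Tlr3 knockout, at -1.62.

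Granule proteins fell with the hormones. Scg2, a secretogranin, fell by 1.81 ± 0.28, Scg5, the chaperone 7B2, by 1.06 ± 0.23, Scg3 by 0.91 ± 0.17 and Cpe, the carboxypeptidase that trims prohormones, by 0.77 ± 0.19 (all SE). With normexp correction none of these 4 passed, and the changes were -0.23, -0.17, -0.35 and -0.61. Chga and Chgb, the chromogranins that mark most enteroendocrine cells, changed by -0.34 (adjusted p = 0.23) and -0.51 (adjusted p = 0.14). Sst, somatostatin, changed by -0.49 and Tph1, the enzyme of serotonin synthesis, by -0.30, and neither passed.

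Transcription factors of the lineage did not share one direction. Pax4 and Pax6, both factors of endocrine differentiation, were the markers that rose, by 1.40 ± 0.26 and 0.82 ± 0.17 (SE); neither passed with normexp correction (adjusted p = 0.174 and 0.082), nor did Pax6 with the replicate block (0.074). Isl1 fell by 0.43 ± 0.10 (SE) and Insm1 by 0.42 ± 0.13 (SE, adjusted p = 0.0477). With normexp correction their changes were 0.14 and 0.23, and Insm1 also lost the threshold with the replicate block (0.156) and without any one array except wild type replicate 2 and knockout replicate 1 (up to 0.153). Neurog3, which starts the lineage, changed by -0.41 (adjusted p = 0.39) and Neurod1 by -0.40 (adjusted p = 0.35).

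**Figure D2:**
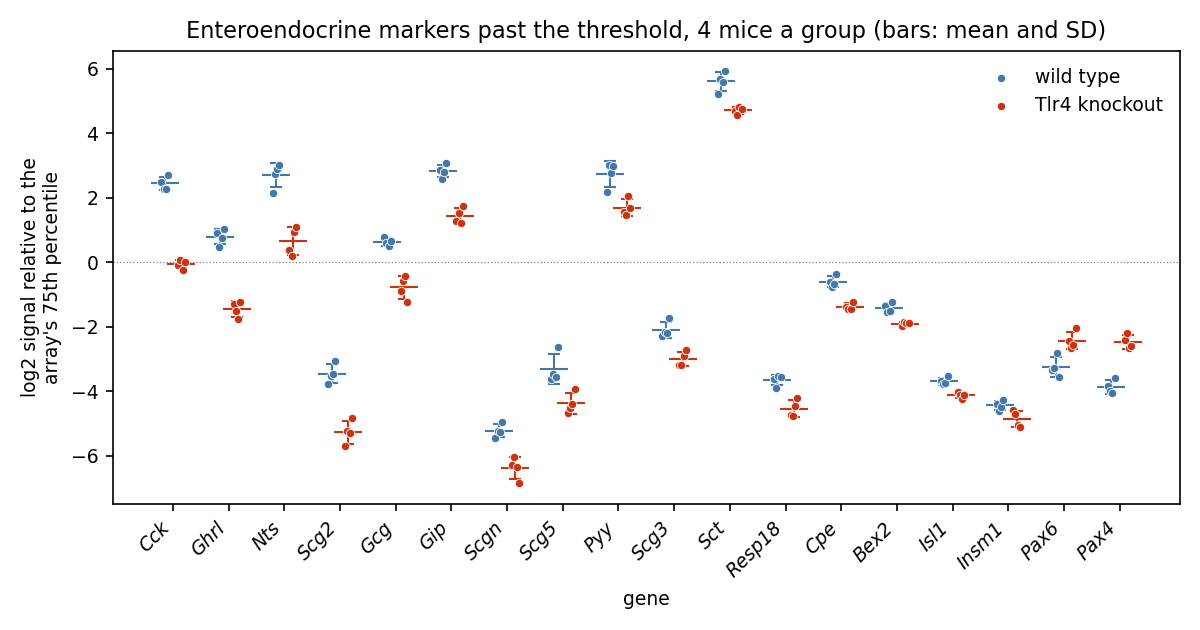
Log2 signal relative to each array's 75th percentile for the 18 enteroendocrine markers past the threshold, with 1 point per mouse and bars for mean and SD (n = 4 per group). Cck, Ghrl and Nts show the widest gaps at the left, with changes of -2.50, -2.23 and -2.05, and Pax6 and Pax4 at the right are higher in the knockout.

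Genes of the proximal small intestine were among the largest falls, with wide spread between mice. Of 21 duodenal and proximal genes 3 fell and none rose, with a median of -0.40. This is 14.3%, against 12.7% of all features in either direction and 3.13% lower. With normexp correction none fell, and the median was -0.19. Cybrd1, the duodenal ferric reductase, read -1.65, 1.56, -0.19 and 2.50 in wild type and -5.40, -4.94, -3.05 and -5.83 in the knockout, a change of -5.36 ± 1.35 (SE, adjusted p = 0.0122), 41.1-fold lower. Its other probes changed by -3.63 and -2.25, and with normexp correction the adjusted p was 0.147. Pdx1, a homeobox factor of duodenum and pancreas, read -1.04, -0.11, -0.72 and 0.48 against -4.31, -3.40, -2.65 and -4.00, a change of -3.24 ± 0.95 (SE, adjusted p = 0.0304). The groups do not overlap for either gene, which holds for 7.13% of all features in this direction.

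Trpv6, the apical calcium channel, changed by -4.57 ± 1.43 (SE, adjusted p = 0.0442), but knockout replicate 3 at -0.21 lay within the wild type range of -1.11 to 1.45, and within slide 3 the difference was 0.03. Without wild type replicates 2 or 4, or knockout replicates 1, 2 or 4, Pdx1 or Trpv6 or both lost the threshold: the adjusted p of Pdx1 was 0.072, 0.093, 0.087, 0.058 and 0.070 in that order, and that of Trpv6 0.113, 0.122, 0.130, 0.085 and 0.132. Trpv6 also had 0.065 without wild type replicate 3 and 0.0863 with the replicate block.

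Other genes of iron and calcium uptake in the duodenum gave values in the same direction that did not pass: Slc40a1, the iron exporter ferroportin, changed by -2.35 (adjusted p = 0.14) and S100g, calbindin, by -2.39 (adjusted p = 0.052). Slc11a2, the iron importer, changed by 0.12 and Lct, lactase, by -0.09. Meis2, a homeobox gene outside the list, fell by 2.28 ± 0.54 (SE), with 2 further probes at -2.24 and -2.40. Of 19 ileal genes none passed, with a median of 0.05, and of 44 absorptive enterocyte genes 1 rose, Npc1l1, the sterol transporter, by 0.66 (adjusted p = 0.0367), which lost the threshold with the replicate block (0.0659) and without any one of wild type replicates 1, 2 and 4 and knockout replicates 1, 3 and 4 (0.063 to 0.120). Which part of the intestine each mouse gave was not tested.

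Of 32 measured genes of the TLR4 receptor complex and proximal signalling 1 rose and 1 fell, together 6.25% against 12.7% of all features. The share that fell, 3.13%, equals that of all features, and the median was -0.05. Ly96, the MD-2 coreceptor, read 1.05, 1.01, 1.15 and 0.95 in wild type and 0.78, 0.67, 0.85 and 0.64 in the knockout, a change of -0.31 ± 0.09 (SE, adjusted p = 0.0281). The groups do not overlap, which holds for 7.13% of all features with the knockout lower. Ly96 was also lower than in the Trif mutant, the Tlr3 knockout and the MyD88 knockout by 0.44, 0.38 and 0.31. With the replicate block its adjusted p was 0.0836, and leaving out any array except wild type replicate 4 or knockout replicate 3 gave 0.050 to 0.085. Ikbke, a kinase of the TRIF branch, rose by 0.58 ± 0.15 (SE, adjusted p = 0.013; 0.0818 with the replicate block). Cd14 changed by 0.58 ± 0.23 (SE, adjusted p = 0.117), and passed with the replicate block at 0.0246 and without knockout replicate 4 at 0.045. Lbp changed by -0.01, Tirap by -0.27, Myd88 by -0.03 and Ticam1, which encodes TRIF, by 0.17, and none passed. Ticam2, the gene of TRAM, was not among the features kept.

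Of the other Toll-like receptors Tlr2, a receptor for bacterial lipoproteins, passed. It read -1.68, -1.88, -2.11 and -2.71 in wild type and -0.70, -0.60, -0.67 and -1.65 in the knockout, a change of 1.19 ± 0.36 (SE, adjusted p = 0.0358). Without wild type replicates 2, 3 or 4 its adjusted p was 0.055, 0.068 and 0.129, and without knockout replicates 1, 2 or 3 it was 0.094, 0.1001 and 0.088. Tlr3 (-0.14), Tlr5 (-0.24) and Tlr9 (-0.42) did not pass.

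NF-kappaB targets and regulators had 4 rises and no falls among 27 measured, with a median of 0.00. This is 14.8%, near the 12.7% of all features that passed in either direction (9.59% higher). Tnip1, a brake on NF-kappaB, rose by 0.64 ± 0.13 (SE, adjusted p = 0.00201). Birc2, a ubiquitin ligase of TNF signalling, rose by 0.40 ± 0.10 (SE), with an adjusted p of 0.183 under median scaling. The other two were Nfkbia, at 0.41 ± 0.12 (SE; adjusted p = 0.0303, and 0.106 with the replicate block), and Il1a, not well above background in either group. With the replicate block, or without wild type replicates 1 or 4 or knockout replicates 1 or 3, 2 genes of the list rose, with normexp correction none did, and median scaling gave 2 rises and 2 falls. Among 15 epithelial chemokines 3 fell, which is 20%, against 12.7% of all features in either direction and 3.13% lower. Cxcl16, a membrane-bound chemokine, fell by 1.14 ± 0.26 (SE, adjusted p = 0.00629). Cx3cl1 was at -0.55 ± 0.11 (SE), where a second probe changed by 0.43, and Cxcl14 at -0.59 ± 0.18 (SE), with adjusted p of 0.052 for both with the replicate block. Outside that list Ccl17, a ligand of CCR4, rose by 2.47 ± 0.23 (SE), from a mean of -5.16 to -2.69; it was named after its value was seen.

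Acute-phase genes had 3 falls among 16, which is 18.75%, against 12.7% of all features in either direction and 3.13% lower. Lrg1, a leucine-rich acute-phase glycoprotein, changed by -2.03 ± 0.53 (SE, adjusted p = 0.0156), and Saa1, serum amyloid A, by -1.81 ± 0.55 (SE). Saa3 went from a mean of 2.18 to 0.18, with wild type replicate 4 inside the knockout range for both Saa genes. Without knockout replicate 4 none of the 3 passed, and without wild type replicates 1, 2 or 3 or knockout replicate 2 only Lrg1 did. Among 35 measured genes of fatty acid oxidation and other PPAR-alpha targets 5 rose and none fell, with a median of 0.26, or 0.03 without knockout replicate 4. This is 14.3%, near the 12.7% of all features that passed in either direction (9.59% higher). Angptl4, a lipase inhibitor of fasting, read between 1.74 and 3.43 in wild type and between 4.44 and 5.91 in the knockout, a change of 2.77 ± 0.43 (SE, adjusted p = 0.00026). Pdk4, which holds back pyruvate oxidation, changed by 2.27 ± 0.51 (SE), and Plin2, a lipid droplet coat protein, by 0.93 ± 0.14 (SE). Against the same wild type arrays, the changes in the Trif, Tlr3 and MyD88 groups were 2.76, 2.47 and 2.33 for Angptl4 and 2.31, 2.16 and 1.45 for Pdk4. The direct difference from the Trif mutant was 0.00 ± 0.43 (SE) for Angptl4.

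Several cell type and process lists had no member past the threshold. None of 50 cell cycle and DNA replication genes, 11 Paneth cell alpha-defensins or 28 stromal, muscle, endothelial and glial markers passed. Their medians were -0.12, -0.34 and 0.06. Of 28 goblet cell markers 2 fell, Fut2 by 1.93 ± 0.40 (SE; a second probe changed by -0.98) and Clca1 by 0.61 ± 0.19 (SE; adjusted p = 0.0443, and 0.070 with the replicate block), and of 27 tuft cell markers 1 fell, Plcg2 by 0.45 ± 0.10 (SE). The shares of the goblet and tuft lists that fell were 7.14% and 3.70%, against 12.7% of all features in either direction and 3.13% lower. Clca1 also lost the threshold on leaving out any one array except wild type replicate 1 and knockout replicate 3, with adjusted p from 0.052 up to 0.1505.

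**Figure D3:**
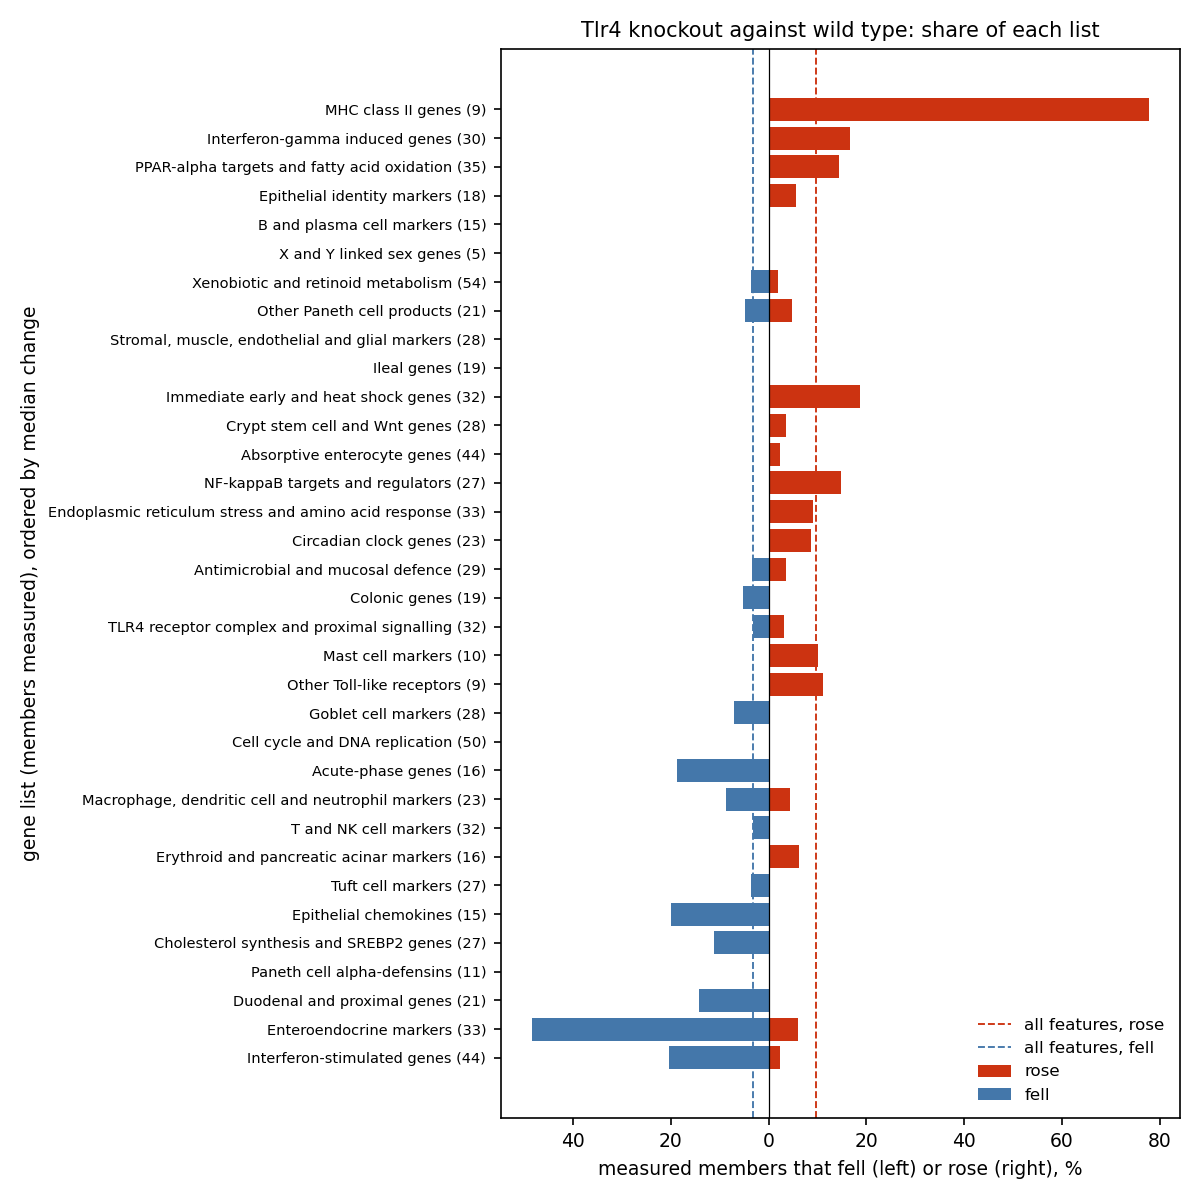
Share of the measured members of each of 34 gene lists that rose (right) or fell (left) in the Tlr4 knockout, ordered by the list's median change, with the number of members measured in brackets and dashed lines at the shares of all features (9.59% higher, 3.13% lower). MHC class II genes stand at 77.8% risen and enteroendocrine markers at 48.5% fallen.

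Among genes outside these lists, the largest rises included several with no signal well above background in wild type. Zfp811, which encodes a zinc finger protein, was above background on none of the wild type arrays and read -3.15, -3.00, -3.32 and -2.65 in the knockout, at least 9.76-fold higher. This bound sets the mean of the bright group against the lowest signal well above background on each dim array, or the probe's own where that is higher. Sfrp1, a secreted Wnt inhibitor, was at least 6.95-fold higher, and Asap3, an Arf GTPase activator, at least 4.66-fold. With normexp correction neither Sfrp1 nor Asap3 passed, and their log2 changes were 1.35 and 1.08, below what these bounds give. Zfp811 kept its call under each alternative, but its lowest log2 change there was 1.73, also below its bound. Lrmda rose by 3.99 ± 0.25 (SE, adjusted p = 3.19e-08), Ceacam10, a carcinoembryonic antigen family member, by 3.51 ± 0.46, Erdr1 by 3.09 ± 0.47 (a second probe by 1.72) and Sec14l4, a lipid transfer protein gene, by 2.74 ± 0.54 (all SE; adjusted p = 0.108 for Sec14l4 with normexp correction). Lrmda was also higher in the Trif and Tlr3 groups than in wild type, by 3.34 and 3.50.

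Camk2b, a calcium and calmodulin dependent kinase, read 0.30, 0.26, 0.52 and 0.24 in wild type and -3.26, -3.31, -3.57 and -3.40 in the knockout, a change of -3.71 ± 0.24 (SE, adjusted p = 3.58e-08). No other mutant came as low, with changes of -0.49, -1.16 and -0.88 in the Trif, Tlr3 and MyD88 groups, and each direct difference passed. Ppp1r3g, a glycogen-targeting subunit of protein phosphatase 1, was not well above background on any knockout array and at least 3.41-fold lower. Zfpm2, Pzp and Spata5l1 were likewise not well above background in the knockout, at least 2.30-fold, 1.45-fold and 1.13-fold lower. None of these 4 passed with normexp correction, where Ppp1r3g changed by -0.22 (adjusted p = 0.777). Cpn2, a carboxypeptidase N subunit, fell by 2.72 ± 0.48 and Bmp8b, a bone morphogenetic protein gene, by 2.40 ± 0.46 (SE; adjusted p = 0.087 with normexp correction). For Vsig2 (-3.00) and Tfec (-2.39) a second probe changed by only -0.19 and -0.50.

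Genes within 10 Mb of Tlr4 on chromosome 4 passed at a share close to that of other chromosomes. Within 10 Mb of the Tlr4 probe 11 of 98 features passed, 11.2%, against 12.6% of the 20372 features on other chromosomes. Alad, a heme synthesis enzyme 4.33 Mb away, read 3.48, 3.43, 3.38 and 3.23 in wild type and 4.53, 4.39, 4.29 and 4.47 in the knockout, a change of 1.04 ± 0.08 (SE, adjusted p = 6.91e-07), with a second probe at 1.45. Its neighbour Hdhd3, a phosphatase-like gene, rose by 0.77 ± 0.09 (SE), and both were higher than in each other mutant. Pole3 changed by 0.40 ± 0.12 (SE), with a second probe at -0.18 and adjusted p of 0.051 to 0.084 on leaving out single arrays other than wild type replicate 4 and knockout replicate 3. Ambp, a plasma protease inhibitor, fell by 1.84 ± 0.38 (SE), and Mup3, a major urinary protein gene, rose by 0.92 ± 0.19 (SE).

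A stretch farther along the chromosome stood out, and it was singled out after its values were seen. Between 60 and 70 Mb from the Tlr4 probe, toward higher coordinates, 58 of 203 features passed, 28.6%, of which 24 rose and 34 fell. For scale, the genome was also cut into 253 fixed windows of 10 Mb with at least 20 features, whose bounds differ from those of this stretch. Their median was 13.04%, and the highest was 28.6%, on chromosome 5 with 6 of 21 features. The fixed windows of chromosome 4 that overlap the stretch stood at 24.3% (45 of 185) and 20.5% (30 of 146). Of these 203 features 29, or 14.3%, also differed in the same direction from every other mutant, against 0.995% of all placed features. Leaving out single arrays gave 48 to 55 features past the threshold in this stretch, and normexp correction gave 22. Whether the knockout line differs from the others in DNA sequence here, which would change how probes bind, was not tested.

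Myom3, a sarcomere protein gene, read -0.77, -0.73, -0.42 and -0.47 in wild type and -3.21, -3.56, -3.53 and -3.68 in the knockout, a change of -2.89 ± 0.17 (SE, adjusted p = 1.28e-08). It was lower than in the Trif, Tlr3 and MyD88 groups by 4.01, 3.93 and 3.58. Zmym1, a zinc finger gene, fell by 1.92 ± 0.18, Serinc2, a serine incorporator, by 1.07 ± 0.09, Sh3bgrl3 by 0.94 ± 0.12 and Phc2, a Polycomb subunit, by 0.84 ± 0.09 (all SE). Ifnlr1, a chain of the interferon lambda receptor, read between 2.43 and 2.76 in wild type and between 1.61 and 2.36 in the knockout, a change of -0.68 ± 0.15 (SE, adjusted p = 0.00441; 0.052 with the replicate block and 0.059 with normexp correction). Asap3, named above, lies here too. In the neighbouring 10 Mb nearer Tlr4, where 11.3% passed, Cap1, an actin-binding protein gene, rose from between 0.55 and 0.68 to between 2.87 and 3.20, a change of 2.40 ± 0.22 (SE), and Hyi, a hydroxypyruvate isomerase gene, by 1.68 ± 0.14 (SE).

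**Figure D4:**
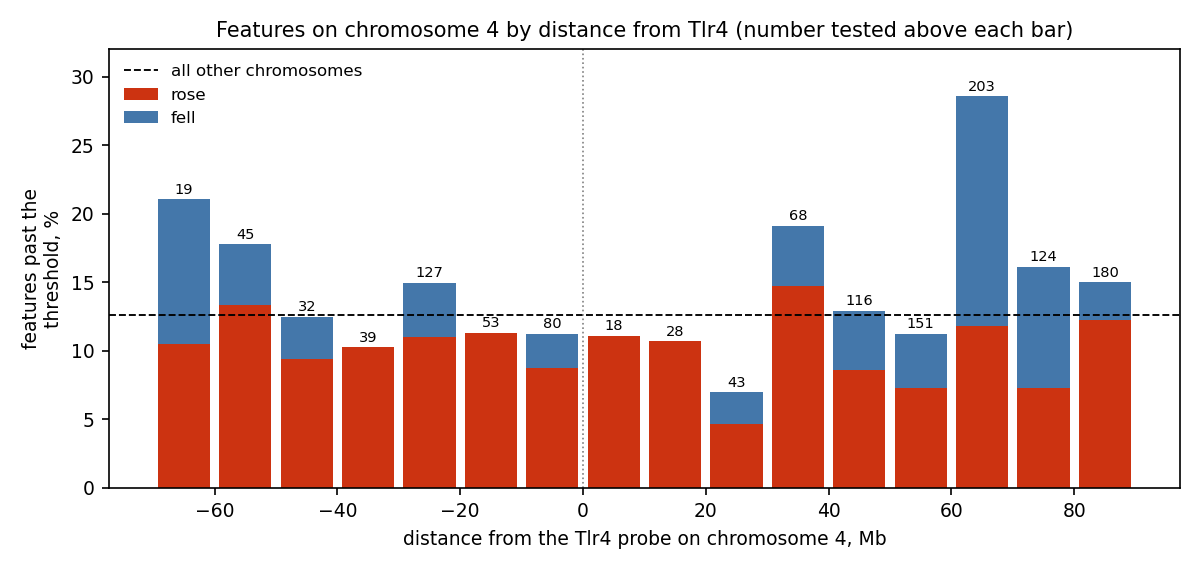
Share of features past the threshold in 10 Mb steps of distance from the Tlr4 probe on chromosome 4 (x axis, Mb), split into rises and falls, with the number of features tested above each bar and a dashed line at the 12.6% of all other chromosomes. The step from 60 to 70 Mb reaches 28.6%, while the steps beside Tlr4 stand at 11.2% and 11.1%.

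Across the whole array 61 features were higher in the knockout than in wild type and than in each other mutant, and 158 were lower than in all of them. Leaving out knockout replicate 1 or 2 reduced the sum of 219 to 139 and 135. Of the 216 of these with a known position 53 lay on chromosome 4 and 30 on chromosome 11, out of 1326 and 1735 features tested there.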

How the data were processed

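RNA of 20 samples was measured on one-colour Agilent 4x44K arrays read with Feature Extraction 10.7.3.1 per the submitters' processing notes and the file headers, with probe positions on mm9. The deposited scanner files hold the authors' background-subtracted intensity of each of 45018 spots. A deposited table of the authors' signal values, scaled by each array's 75th percentile with a floor of 15, was used as an alternative. Here log2 of the deposited intensity minus each array's 75th percentile was taken, control and outlier spots were left out, spots of a probe were averaged, and 31537 of 41174 probes well above background in 50% or more of their spots on at least 4 of the 20 arrays were kept. The probe with the highest mean stood for its gene, which left 21880 features. This filter drops Tlr4.

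Group means of 5 genotypes were fitted over all 20 arrays with limma 3.58.1 in R 4.3.3, with Benjamini-Hochberg adjustment over all features and a threshold of 0.05. The fit was tested on simulated data with known answers. Of 50 changes each of log2 0.5, 1, 2 and 3 it recovered 11, 35, 42 and 48, with 7 false calls among 143. Many changes of log2 1 or less would thus be missed. The simulated noise was independent between arrays and held no shared slide effect. The labels describe the samples as individual animals. Deviations of same-numbered arrays from their group means correlated at 0.35, 0.21, 0.19 and 0.17, and the numbers coincide with slides, so a fit with the replicate number as a block was also run.

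Symbols were updated through accessions with RefSeq tables. Named genes were Tlr4 and its complex, the 15 largest rises and 15 largest falls with a standard symbol whose groups did not overlap, up to 4 genes past the threshold per list and the 5 nearest Tlr4; further list members give context. The members and the 34 gene lists were chosen with earlier results of these data known. Alternatives were normexp correction, quantile and median scaling, the deposited table, other filters, every probe, other moderation, array weights, blocks, a minimum log2 change of 1, single arrays left out and values within slides. Results of some genes are not reported here.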

Additional observations from a re-analysis of the deposited data

Results flagged for a closer look

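Each of 94 named genes was examined for a mouse far from the other 3 of its group, by Dixon's 95% criterion on its gap to the nearest value. This held in 16 of 188 groups, 8.51%, where chance gives about 1 in 20. Values are log2 signals relative to the array's 75th percentile. Knockout replicate 4 was the mouse that stood apart most often. It was lowest for Tlr2 (-1.65), Lrg1 (-2.07), Cd14 (-0.45) and Lbp (-3.72), and highest for Pdk4 (2.80), Herpud1 (5.44), Gzma (2.32) and Ambp (0.14). Knockout replicate 3 was highest for Ubd (4.22) and lowest for Pole3 (3.26), and knockout replicate 1 was highest for Cyp26b1 (-5.89). In wild type, replicate 4 was highest for Rtp4 (5.07) and lowest for Ceacam10 (-6.75), and replicate 2 was lowest for Cpn2 (0.0227), Tirap (-0.62) and Myd88 (1.99).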

How the results depend on the processing

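Of 90 named genes past the threshold, 31 kept their call and direction under all 21 alternatives other than the minimum log2 change of 1, and 59 did not under at least 1; normexp correction alone ended or turned 57, among them, beside those given with their values, Cd68, Gzma, Iigp1, Fut2, Clca1, Plcg2, Npc1l1, Meis2, Pdx1, Ly96, Tlr2, Cx3cl1, Lrg1, Saa1, Saa3, Tfec, Pole3 and Mup3. The count of 2782 features past the threshold, 2098 of them higher and 684 lower, became 672, 528 and 144 with normexp correction, 4353, 3272 and 1081 with every probe as a feature, 1292, 1100 and 192 with a minimum log2 change of 1, and 4695 in all with 1650 lower with array weights; median scaling gave 1289 lower. Leaving out single arrays gave 2088 to 2564 in all, 1671 to 2052 higher and 409 to 671 lower. The fit with the replicate number as a block on the 8 arrays gave 2593, of which 2016 were shared with the main 2782, and beyond the genes and lists given with it in the text it moved no statement made there. The 11 features within 10 Mb of Tlr4 became 5 with normexp correction, 19 with every probe and 6 with the minimum change, and 8 to 11 with single arrays left out. The 219 features that differed from every other mutant became 38 with normexp correction, 478 with array weights and 113 with the minimum change, and 135 to 251 with single arrays left out. The background-level difference of -0.24 for the Tlr4 probe became 0.45 with normexp correction and -0.65 with quantile normalization. With normexp correction 7 genes that had fallen took the opposite sign without passing: Pzp (0.21), Spata5l1 (0.27), Zfpm2 (0.0283), Cxcl14 (0.24), Cyp26b1 (0.12), Ms4a7 (0.32) and Fcgr1 (0.42), all dim. Il1a was at the floor in the deposited table (-8.9e-16), and Trpv6 was at 0.0257 within slide 3. The cause of these shifts was not tested. Probes near background carry little information here, and Tlr4 is one of them.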

Other observations

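Other gene lists held smaller groups of changes, each at a share below the 12.7% of all features that passed in either direction. Of 27 cholesterol synthesis genes 3 fell, which is 11.1% and above the 3.13% of all features that were lower. Of the 27, 24 lay below 0, with a median of -0.32, and under median scaling 8 fell. Of 23 circadian clock genes 2 rose, Per1 by 1.25 and Per2 by 1.04, where a second Per2 probe changed by 0.14; Per2 (adjusted p = 0.0433) lost the threshold under 10 of 21 alternatives, among them median scaling (0.098), normexp correction (0.105) and the omission of any one array except wild type replicate 4 and knockout replicate 3 (up to 0.134). Of 33 genes of endoplasmic reticulum stress and the amino acid response 3 rose, and none did under median scaling. Of 28 crypt stem cell and Wnt genes 1 rose, and of 21 Paneth cell products other than alpha-defensins 1 rose and 1 fell.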
